A study of Mus musculus with 6 samples.

Results

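The 10 genes described here are markers of disease-associated microglia, the state that microglia take up around amyloid plaques and degenerating neurons: Trem2, Tyrobp, Spp1, Gpnmb, Cst7, Lpl, Igf1, Cd9, Lgals3 and Fabp5. They were chosen by symbol, as a published marker set read beside the TREM2 receptor complex, and each matched 1 of the 55487 Ensembl genes in the files. These genes and the other lists below were chosen with earlier results of these data known. The study asked which transcripts change in microglia that lose the clock repressor REV-ERBα, encoded by Nr1d1. Bulk RNA-seq was done on 6 cultures of primary cortical microglia, 3 Cre- and 3 Cre+. The 6 cultures came from pups of the CAG::CreERT2; Nr1d1fl/fl line taken at P1-3, so Cre- controls carried the floxed Nr1d1 alleles too, without the recombinase. Both groups received 1.5 μM 4-hydroxytamoxifen (4-OHT), for 2 days by the labels, whereas the study's methods give a shorter exposure for cultures of this line. CreERT2 is a recombinase that moves into the nucleus when it binds 4-OHT, and the CAG promoter is active in nearly every cell type, so deletion is not limited to microglia. By the study's methods, microglia were grown in mixed glial flasks with GM-CSF and serum and were shaken off before use. The labels do not say whether the 3 cultures of a group came from different animals, so the p-values measure only the spread between these samples. In such bulk RNA, fewer cells of a type and less RNA per cell cannot be told apart.

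TREM2 is a surface receptor for lipids, lipoproteins and cell debris, and it signals through the adaptor TYROBP (DAP12), whose phosphorylated motif recruits the kinase SYK. In mouse models of neurodegeneration, microglia lower homeostatic genes such as P2ry12 and Tmem119 and raise Apoe and Tyrobp, and a later step that depends on TREM2 raises Spp1, Gpnmb, Cst7, Lpl, Cd9, Lgals3 and Fabp5. Many of these genes act in lysosomes, lipid uptake and phagocytosis, and several are also high in microglia that are grown in serum.

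Promoter sequence was available for 7 of the 10 genes, all except Tyrobp, Lpl and Fabp5, in RefSeq windows on build GRCm38.p6 that run from 250 bases before to 50 after a start site. REV-ERBα binds the letters AGGTCA, usually behind a stretch rich in A and T. AGGTCA, searched on both strands, was present in the windows of Trem2 and Igf1 and in 16.3% of all 32851 promoter windows. TAGGTCA, which contains AGGTCA, was in none of the 8 windows of these genes (Spp1 has 2 windows) and in 2.61% of all windows. The 250 bases before the start site are shown for Trem2 and Igf1, which hold AGGTCA, and for Gpnmb, which was higher in Cre+ and holds no searched motif there. Capitals mark AGGTCA or its reverse complement TGACCT, and the ETS core GAGGAAG (the family of PU.1) or its reverse complement CTTCCTC:
Trem2 (chr17:48346151-48346400, plus strand): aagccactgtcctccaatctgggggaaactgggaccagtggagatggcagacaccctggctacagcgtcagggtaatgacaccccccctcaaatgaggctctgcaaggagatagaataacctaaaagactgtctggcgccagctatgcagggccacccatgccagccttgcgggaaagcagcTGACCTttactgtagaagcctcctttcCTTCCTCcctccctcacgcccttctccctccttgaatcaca
Igf1 (chr10:87860861-87861110, plus strand): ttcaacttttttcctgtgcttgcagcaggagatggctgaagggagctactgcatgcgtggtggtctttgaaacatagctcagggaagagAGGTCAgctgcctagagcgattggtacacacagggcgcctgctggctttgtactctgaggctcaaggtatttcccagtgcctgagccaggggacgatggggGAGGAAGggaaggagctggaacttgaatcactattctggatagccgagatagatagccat
Gpnmb (chr6:49036268-49036517, plus strand): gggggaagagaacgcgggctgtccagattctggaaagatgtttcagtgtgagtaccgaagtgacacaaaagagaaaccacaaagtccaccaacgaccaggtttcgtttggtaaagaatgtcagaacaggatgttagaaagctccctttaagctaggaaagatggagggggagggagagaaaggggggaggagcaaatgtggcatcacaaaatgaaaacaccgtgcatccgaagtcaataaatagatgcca
In Trem2 both matches were on the minus strand. As printed, the first base of TGACCT lay at position -68 from the start site, and that of CTTCCTC at -41. In Igf1 the first bases of AGGTCA and GAGGAAG lay at -161 and -60 on the plus strand. GAGGAAG was in 13.6% of all windows and also in 1 window of Spp1. Among the other motifs searched, CACGTG (the E-box of the clock activators; 7.15% of all windows) was in no window of these genes, CATGTG (an MITF-type M-box core, 14.2%) was in that of Cd9, and TGACTCA (the AP-1 site, 5.2%) was in that of Gpnmb, 8 bases past the start site. These matches describe letters in a window, and binding was not measured.

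Counts on genes ran from 87545868 to 93942161 per library in Cre- and from 93701215 to 110909129 in Cre+, deep enough that counting error was small for every one of the 10 genes except Cst7. Genes with at least 1 count were fewer in Cre+ (29941 to 30677) than in Cre- (32587 to 35166), and ribosomal RNA took 0.791% to 1.12% of counts in Cre+ and 1.22% to 1.27% in Cre-. Nr1d1 itself was at 2.35, 1.20 and 1.64 CPM (a gene's counts relative to the library total, here with TMM scaling) in Cre- and 1.00, 0.945 and 1.08 CPM in Cre+. It was lower in all 3 Cre+ libraries without passing the test (log2 fold change -0.77, SE 0.25, adjusted p = 0.0945, edgeR quasi-likelihood). The 9 myeloid identity markers summed to 6240 to 6400 CPM in Cre- and 6200 to 6360 CPM in Cre+, led by Cd68. Among them Itgam was higher in Cre+ (log2 fold change 0.18, adjusted p = 0.0463), whereas Aif1 was at only 2.35 to 3.19 CPM. Homeostatic markers were low: on library totals, P2ry12 averaged 0.597 CPM in Cre- and 0.715 CPM in Cre+, and Tmem119 2.90 and 2.39 CPM. Astrocyte markers summed to 43.0 to 47.4 and 42.1 to 47.9 CPM, with 6 of 8 under 1 CPM in every library, and oligodendrocyte lineage markers to 72.2 to 82.9 and 69.7 to 73.9 CPM. The sums in Cre+ lay below those in Cre- for 4 lists: neurons (1.92 to 2.08 against 2.59 to 3.62 CPM), fibroblasts and mural cells (0.577 to 0.736 against 1.40 to 2.35), endothelial cells (1.19 to 1.42 against 1.47 to 2.36), and monocytes and neutrophils (8.19 to 9.55 against 10.3 to 12). Most of the last sum was S100a8 (6.81 to 7.79 against 8.68 to 10.9 CPM), which did not pass the test (adjusted p = 0.0719). In the same list Ccr2 overlapped between the groups (1.31 to 1.70 against 1.10 to 1.59 CPM), and the other 3 markers were under 1 CPM. Border macrophage markers were higher in Cre+ (70.1 to 85.5 against 54.1 to 57.5 CPM), through Mrc1 alone (log2 fold change 0.47, adjusted p = 0.000669), with Cd163, Lyve1 and F13a1 under 1 CPM. Dendritic cell markers summed to 1.13 to 1.54 and 0.822 to 1.32 CPM. The part of these differences in the results below was not tested.

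Of the 10 genes, 9 were among the most abundant transcripts of the cultures, and Cst7 was nearly silent. Per kilobase of gene length (FPKM), Spp1 was at 41744 ± 625 FPKM (SD, n = 3) in Cre-, 6.2 times the level of Lgals3 at 6729 ± 254 FPKM. Gpnmb followed at 4052 ± 79.6 FPKM, Tyrobp at 3618 ± 130 FPKM and Cd9 at 1567 ± 41.1 FPKM. Lpl (360 ± 8.90 FPKM), Fabp5 (340 ± 11.4 FPKM) and Trem2 (320 ± 4.53 FPKM) lay close together, before Igf1 at 118 ± 1.02 FPKM and Cst7 at 1.43 ± 0.470 FPKM. The ranges of Lpl and Fabp5 overlapped in Cre-, and those of Fabp5 and Trem2 overlapped in Cre+, while the other neighbours in this order were apart in both groups. The order and its steps rest on the gene lengths used, which were 10478 bases for Lpl, 3567 for Fabp5 and 4946 for Trem2. Without length, on library totals, Lpl averaged 3776 CPM, Trem2 1585 CPM and Fabp5 1214 CPM in Cre-. By that measure Gpnmb (26394 CPM) lay above Lgals3 (12502 CPM), and Lpl above Cd9 (3202 CPM) and Tyrobp (2413 CPM). Together the 10 genes took 11.9%, 12.2% and 12.2% of all counts in Cre- and 12.3%, 12.4% and 12.3% in Cre+. By CPM, Spp1 ranked as number 1 of all genes, with 6.61% to 6.95% of a library's counts, and Gpnmb as number 4.

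**Figure D1:**
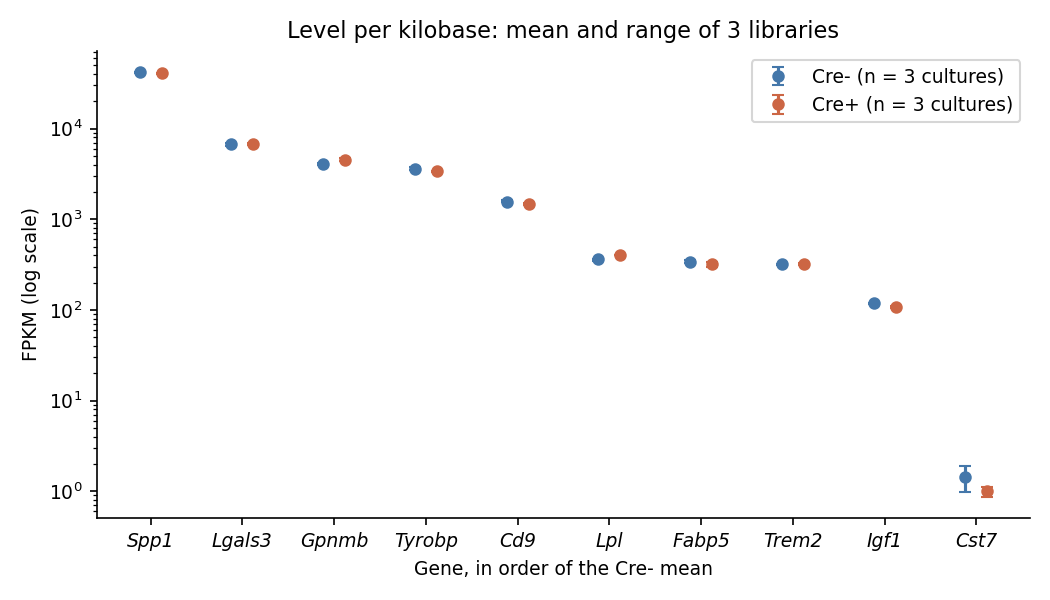
Level of each gene per kilobase (FPKM, log axis), in order of the Cre- mean. Points are means of 3 libraries and bars run from the lowest to the highest library. The groups nearly coincide for every gene but Cst7, and levels fall from 41744 FPKM for Spp1 to 1.43 FPKM for Cst7 in Cre-.

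Across the set, 2 of the 9 genes tested were called and both were higher in Cre+: Gpnmb and Lpl, by 11.6% and 11.4% of the Cre- mean. No gene of the set was called lower by edgeR. With limma voomWithQualityWeights, the method of the study, Igf1 was called lower (adjusted p = 0.0313). The 9 genes spanned log2 fold changes from -0.13 to 0.16, with a median of -0.03 beside 0.002 for all genes. Of all 11429 genes tested, 5.07% were called, 2.50% higher and 2.56% lower in Cre+. All 9 exceeded 1000 CPM, where 26.1% of 92 genes were called, so the 22.2% of this set was near the share of genes of like abundance. The libraries of the groups did not overlap for 5 of the 9 genes, against 24.0% of all genes and 51.1% of those above 1000 CPM. The median size of the log2 fold change was 0.09 for the 9 genes and also 0.09 for the genes above 1000 CPM.

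**Figure D2:**
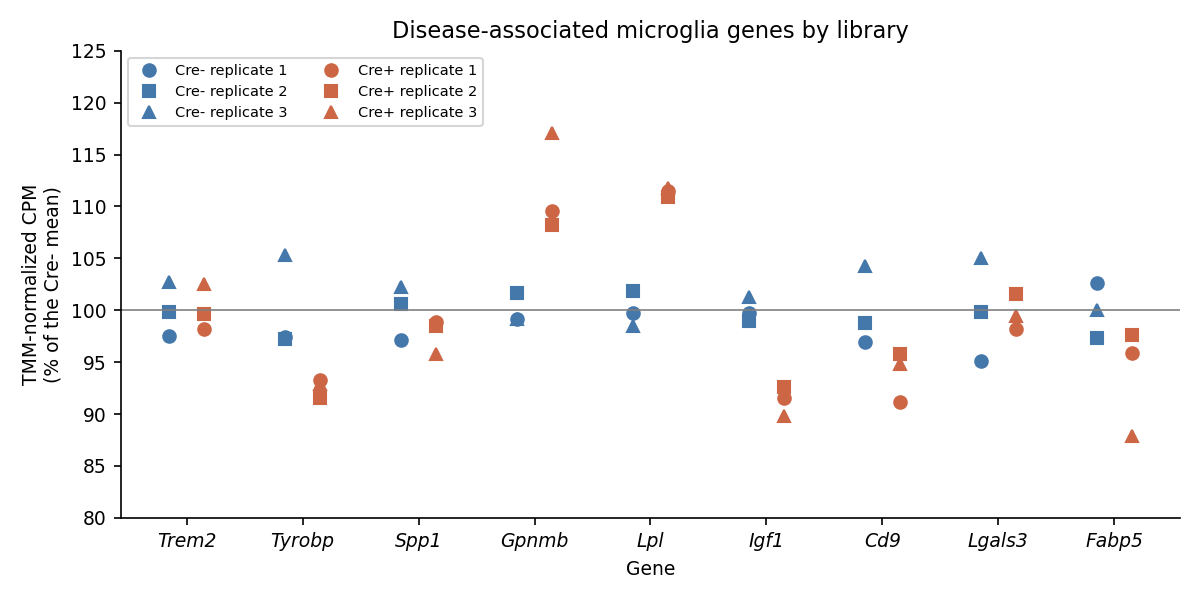
TMM-normalized CPM of the 9 genes tested, in each of the 6 libraries, as a percentage of the gene's Cre- mean (grey line at 100%; the axis starts at 80%). Blue marks are Cre-, orange marks Cre+, and the shape gives the replicate number. Gpnmb and Lpl lie between 108% and 117% in Cre+, and Tyrobp, Igf1 and Cd9 lie below every Cre- library.

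Trem2, the receptor (chr17:48346401-48354147), did not differ detectably. Its TMM-normalized level was 1573, 1611 and 1657 CPM in Cre-, beside 1585, 1607 and 1655 CPM in Cre+. The values of the groups interleave, and the log2 fold change was 0.002 (SE 0.04, adjusted p = 0.991). The unadjusted 95% interval ran from -5.26% to 5.78%, so a larger change of the Trem2 transcript lies outside it. The sign of so small a value changed with the scaling, being negative with the size factors of DESeq2.

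Tyrobp, the adaptor that carries the signal of TREM2 (chr7:30413760-30417585), was at 2394, 2390 and 2589 CPM in Cre- and at 2292, 2250 and 2282 CPM in Cre+. Every Cre+ library was below every Cre- library, and Cre- replicate 3 was the highest. The log2 fold change was -0.11 (SE 0.04, unadjusted 95% interval -0.19 to -0.03), which did not pass the test (adjusted p = 0.123).

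The ratio of Trem2 to Tyrobp, which does not depend on the scaling of libraries, was 0.0886, 0.0909 and 0.0863 per kilobase in Cre- and 0.0932, 0.0963 and 0.0978 in Cre+. The size of this ratio rests on the gene lengths of 4946 and 667 bases that the files use for Trem2 and Tyrobp. On counts it was 0.657, 0.674 and 0.640 in Cre- and 0.691, 0.714 and 0.725 in Cre+. By either measure the ratio was below 1 in all 6 libraries, and the Cre+ ratios all lay above the Cre- ratios. The difference was 0.11 on the log2 scale (SD 0.04 in each group, n = 3), with a two-sided exact permutation p of 0.1, the smallest that 3 against 3 libraries can give.

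Gpnmb, a transmembrane glycoprotein of lysosomes and the plasma membrane (chr6:49036546-49070929), was at 26651, 27322 and 26635 CPM in Cre- and at 29449, 29073 and 31445 CPM in Cre+. All Cre+ libraries were above all Cre- libraries, with Cre+ replicate 3 the highest. Gpnmb rose by a log2 fold change of 0.16 (SE 0.03, unadjusted 95% interval 0.09 to 0.23, adjusted p = 0.0128). It was no longer called without Cre- replicate 1 (0.14, adjusted p = 0.0532), without Cre- replicate 3 (0.15, adjusted p = 0.0656) and without Cre+ replicate 3 (0.12, adjusted p = 0.0507).

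Spp1, which encodes the secreted ligand osteopontin (chr5:104435118-104441050), was at 68063, 70450 and 71634 CPM in Cre- and at 69281, 68977 and 67085 CPM in Cre+. The groups overlapped, and this transcript, the most abundant of the cultures by CPM, did not differ detectably (log2 fold change -0.03, SE 0.03, adjusted p = 0.599). Its unadjusted 95% interval reached from -6.46% to 2.08%. Spp1 shares 309 exon bases with the predicted gene Gm42793, which held 0.0197% as many counts.

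Lgals3, which encodes galectin-3, a lectin that marks damaged lysosomes (chr14:47367751-47386160), was at 12113, 12709 and 13377 CPM in Cre- and at 12500, 12936 and 12658 CPM in Cre+. The Cre+ values fell inside the Cre- range (log2 fold change -0.004, SE 0.04, adjusted p = 0.975). Its direction changed with the scaling: it was 0.001 on library totals.

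Cst7, the cathepsin inhibitor cystatin F (chr2:150570415-150578944), had 165, 90 and 129 counts in Cre- and 110, 104 and 88 counts in Cre+. That is 1.88, 0.958 and 1.40 CPM on library totals against 0.992, 1.11 and 0.860 CPM, which is below the filter of the test. The groups overlapped, and the two-sided exact permutation p was 0.3. One of the strongest markers of the state in brain was thus barely detected, and its spread between libraries was wide (SD 0.464 on a mean of 1.41 CPM in Cre-).

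Lpl, lipoprotein lipase, which releases fatty acids from lipoproteins (chr8:68880491-68907448), was at 3835, 3914 and 3784 CPM in Cre- and at 4286, 4263 and 4299 CPM in Cre+. The groups were far apart relative to their spread, with a coefficient of variation of 1.7% in Cre- and 0.425% in Cre+. Lpl rose by a log2 fold change of 0.16 (SE 0.03, unadjusted 95% interval 0.09 to 0.23, adjusted p = 0.0119). It had the smallest p-value of the set, and its call was lost only without Cre- replicate 3 among the 6 fits that left out a library (0.14, adjusted p = 0.0598). The 4 genes nearest to Lpl across the 6 libraries, by the root mean square difference of centred log2 CPM, were Ccs (0.0124), Psmc2 (0.0137), Lilr4b (0.0150) and Gripap1 (0.0166), of 11428 compared with a median of 0.144. Of these, Lilr4b was called (adjusted p = 0.0241), and Ccs (0.188), Psmc2 (0.0894) and Gripap1 (0.102) were not. They were picked as the smallest distances of many, and their closeness was not tested.

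Fabp5, a cytosolic fatty acid carrier (chr3:10012548-10016607), was at 1269, 1203 and 1236 CPM in Cre- and at 1185, 1206 and 1086 CPM in Cre+. The groups overlapped through Cre+ replicate 2, and the log2 fold change of -0.09 did not pass the test (SE 0.04, adjusted p = 0.268). Processed pseudogenes match Fabp5 over 175 bases, Gm6166 at 99.4% identity and Gm14328 and Gm13998 at 96.0%. Together these 3 held 13.8% as many counts as Fabp5. Read assignment between Fabp5 and these copies is uncertain. Summed with them, which was chosen after the data were seen, the level on library totals was 1378 ± 48.8 CPM in Cre- and 1307 ± 76.0 CPM in Cre+ (SD, n = 3, exact permutation p = 0.3).

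Igf1, insulin-like growth factor 1, a trophic factor that microglia secrete (chr10:87858265-87937042), was at 1185, 1177 and 1205 CPM in Cre- and at 1089, 1102 and 1068 CPM in Cre+. All Cre+ libraries were below all Cre- libraries. The log2 fold change of -0.13 (SE 0.04, unadjusted 95% interval -0.21 to -0.05) lay just above the threshold of the test, at an adjusted p of 0.0508. It was called in 5 of 17 alternative fits, among them limma voom (adjusted p = 0.0304) and DESeq2 (adjusted p = 0.0145), and in none of the 6 fits that left out a library.

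Cd9, a tetraspanin of the cell surface and of extracellular vesicles (chr6:125460266-125494791, minus strand), was at 3161, 3222 and 3399 CPM in Cre- and at 2972, 3122 and 3091 CPM in Cre+. Every Cre+ library was below every Cre- library by a small margin, and the log2 fold change of -0.09 did not pass the test (SE 0.04, adjusted p = 0.201). Cd9 shares 218 exon bases with Gm26728 on the opposite strand, which held 51 to 88 counts per library.

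**Figure D3:**
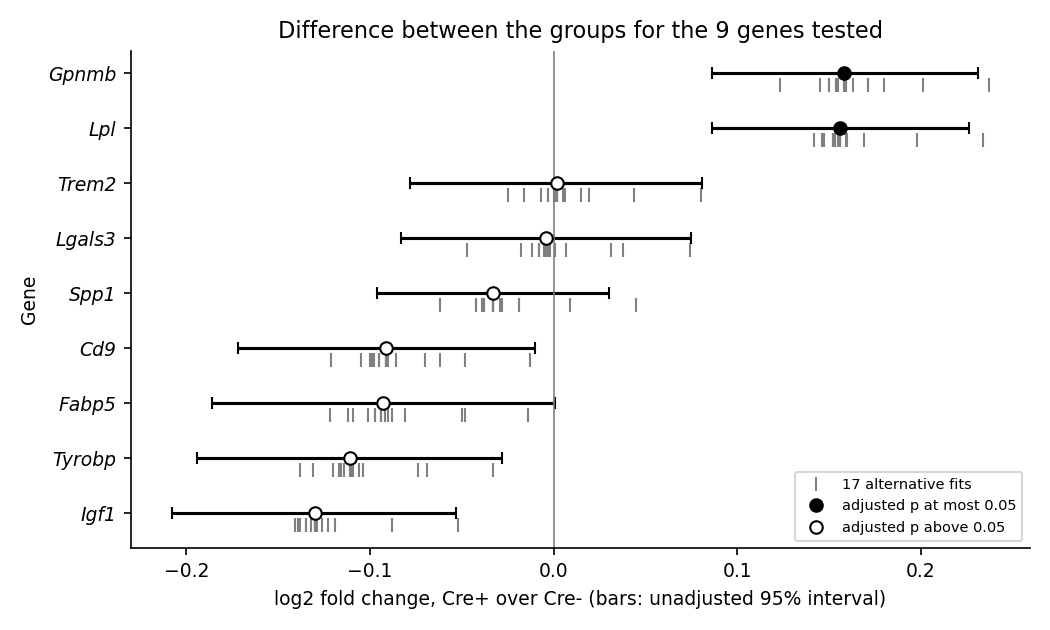
Log2 fold change of each gene tested, Cre+ over Cre-. Circles are the values of the edgeR fit with unadjusted 95% intervals, filled where the adjusted p was at most 0.05 (Gpnmb and Lpl), and grey ticks are the 17 alternative fits. Trem2, Spp1 and Lgals3 have ticks on both sides of 0, and the other 6 genes have all ticks on 1 side.

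A list of 20 genes linked to TREM2 signalling held the kinase Syk, adaptors and the phospholipase Plcg2. It also held the sheddases Adam10 and Adam17, which are not downstream of the receptor. Of the 20, 0 passed the test in the edgeR fit, where 5.07% of all genes would be about 1 of 20. At an unadjusted p under 0.05 there were 5 of the 20, beside 2188 of all 11429 genes. With limma voom 0 of the 20 were called, beside 583 of all genes. DESeq2 called 1 of the 20 (Dok1, an inhibitory adaptor, named after its value was seen), beside 886 of all genes. Over the 20 genes the median log2 fold change was -0.01, with a range from -0.28 to 0.23, and its median size was 0.08 beside 0.11 for all genes. The most abundant of them, Adam17, a sheddase that cleaves TREM2 off the surface, averaged 173 ± 11.4 CPM in Cre- and 173 ± 7.43 CPM in Cre+.

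Among 9 receptors that signal through TYROBP besides TREM2, 7 were tested, 1 rose and 1 fell, or 28.6% beside 5.07% of all genes. Cd300lb, an activating lipid-binding receptor, was at 481, 475 and 442 CPM in Cre- and at 542, 515 and 539 CPM in Cre+ (log2 fold change 0.19, SE 0.04, adjusted p = 0.0201). Its groups did not overlap, and its call was lost without Cre- replicate 3 (0.15, adjusted p = 0.0987), without Cre+ replicate 1 (0.18, adjusted p = 0.0716) and without Cre+ replicate 3 (0.18, adjusted p = 0.0753). Sirpb1c, a signal-regulatory protein, was at 17.3, 20.8 and 18.6 CPM in Cre- and at 13.8, 14.3 and 14.0 CPM in Cre+ (log2 fold change -0.43, SE 0.09, adjusted p = 0.0112). Without Cre- replicate 2 it was not called (-0.36, adjusted p = 0.0567). Its longest transcript matches those of Sirpb1a and Sirpb1b at 97.6% and 98.7% identity, so counts among these 3 genes are uncertain. The most abundant, Cd300c2, averaged 582 ± 3.07 CPM in Cre- and 590 ± 3.75 CPM in Cre+ (adjusted p = 0.842). The median log2 fold change of the 7 was -0.20, and that of the 4 left without the 3 near-identical Sirpb1 genes, a choice made after the data were seen, was 0.02.

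A further 36 genes of the disease-associated state moved in both directions: of 35 tested, 9 rose and 7 fell, or 45.7% beside 5.07% of all genes, with a median log2 fold change of 0.03. Whether this share differs from that of the 9 genes was not tested. Of the 17 above 1000 CPM, 7 were called, and of all 92 genes above 1000 CPM 24 were, or 26.1%. The 6 with the smallest p-values were called in each of the 17 alternative fits. Apoe, the main apolipoprotein of the brain, fell from 14674 ± 987 CPM to 9824 ± 273 CPM (log2 fold change -0.58, SE 0.04, adjusted p = 8.17e-07). Lyz2, a lysozyme and the most abundant of this list, fell from 62365 ± 2240 to 49512 ± 341 CPM (-0.33, SE 0.03, adjusted p = 8.95e-06), and it is 95.8% identical to Lyz1 over 1264 bases. The chemokine Ccl3 rose from 21.0 ± 2.73 to 39.5 ± 1.80 CPM (0.91, SE 0.09, adjusted p = 1.37e-05), and the chemokine Ccl6 from 154 ± 18.0 to 259 ± 30.1 CPM (0.75, SE 0.08, adjusted p = 4.17e-05). Clec7a, the β-glucan receptor Dectin-1, rose from 2351 ± 12.3 to 2792 ± 77.2 CPM (0.25, SE 0.04), and Itgax, the integrin CD11c, from 325 ± 6.06 to 392 ± 16.5 CPM (0.27, SE 0.04, SD and n = 3 throughout). Thus Apoe fell while Trem2 did not differ detectably and Gpnmb and Lpl rose.

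**Figure D4:**
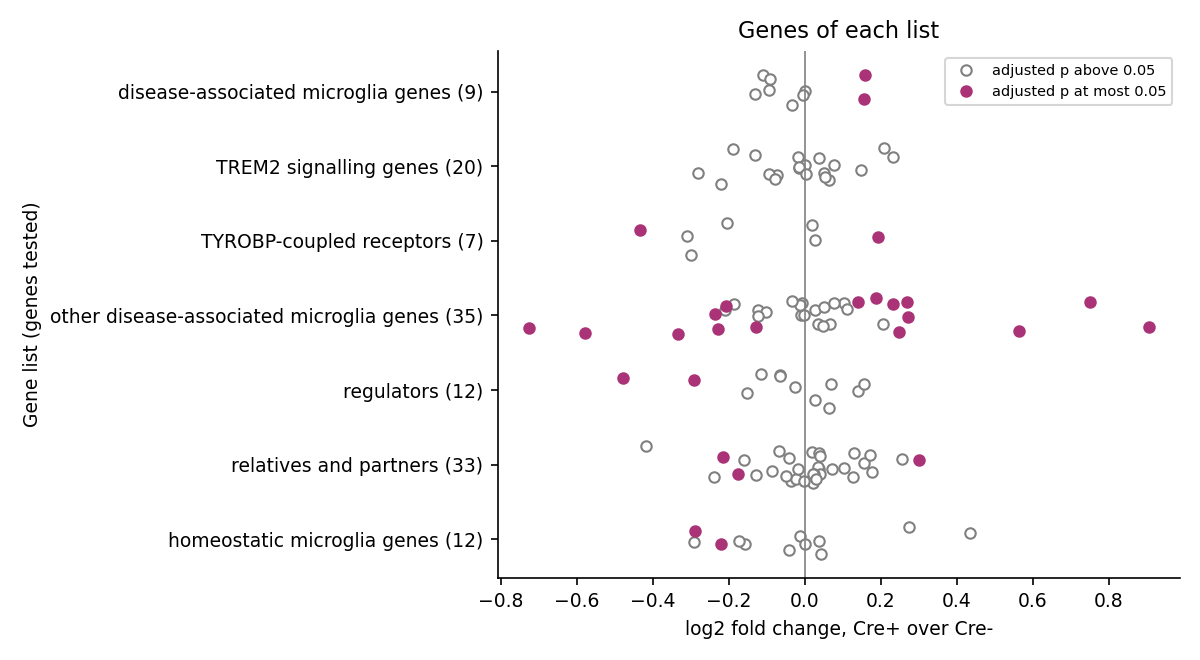
Log2 fold change, Cre+ over Cre-, of every gene tested in each list, with the number tested in brackets. Filled circles are genes with an adjusted p of at most 0.05, and vertical scatter within a row has no meaning. The 9 tested genes of the set and the TREM2 signalling genes stay within -0.28 to 0.23, and the other disease-associated genes reach from -0.73 to 0.91.

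Among 12 transcription factors linked to this state or to myeloid identity, 2 fell (16.7%, beside 2.56% of all genes) and 0 rose, with a median log2 fold change of -0.04. Cebpa, a myeloid lineage factor, was at 43.1, 39.0 and 52.6 CPM in Cre- and at 33.8, 31.5 and 31.4 CPM in Cre+ (-0.48, SE 0.09, adjusted p = 0.00562), with no overlap between the groups and a call in all 17 alternative fits. Rxra, the partner of lipid-sensing nuclear receptors, was at 33.7, 31.6 and 34.3 CPM in Cre- and at 28.7, 24.0 and 28.6 CPM in Cre+ (-0.29, SE 0.08, adjusted p = 0.0459). The call of Rxra was lost whichever library was left out, with adjusted p from 0.0549 to 0.167. The most abundant, Bhlhe41, a repressor of the clock and of lipid-handling genes in macrophages, averaged 601 ± 37.4 CPM in Cre- and 630 ± 24.7 CPM in Cre+ (adjusted p = 0.494).

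Of 46 relatives and partners of the 10 genes (fatty acid carriers, galectins, cystatins and cathepsins, tetraspanins, lipases, the IGF system and osteopontin receptors), 33 were tested, 1 rose and 2 fell, or 9.09% beside 5.07% of all genes, with a median log2 fold change of 0.02. The tetraspanin Cd53 was at 972, 1035 and 1029 CPM in Cre- and at 1487, 1134 and 1117 CPM in Cre+ (0.30, SE 0.08, adjusted p = 0.0408). Cre+ replicate 1 stood above the other libraries, and without it the change of Cd53 was 0.15 (adjusted p = 0.0809). The call was also lost without each Cre- replicate in turn (adjusted p = 0.121, 0.0757 and 0.0977), and DESeq2 on all 6 libraries did not call Cd53 either (0.30, adjusted p = 0.217). Cathepsin H, encoded by Ctsh, a protease of the class that cystatins inhibit, averaged 734 ± 15.8 CPM in Cre- and 650 ± 22.4 CPM in Cre+ (-0.18, SE 0.04, adjusted p = 0.0204). It was not called without Cre- replicate 2 (adjusted p = 0.0585), Cre- replicate 3 (0.0852) or Cre+ replicate 1 (0.0917). Itgb5, an integrin subunit that binds osteopontin, was at 99.8 ± 7.39 and 85.9 ± 1.84 CPM (-0.22, SE 0.06, adjusted p = 0.0432), and among the fits that left out a library it was called only without Cre- replicate 2. In the other 5 its adjusted p was 0.0882 to 0.149, and limma voomWithQualityWeights on all 6 libraries did not call it (0.0545). Lgmn, the lysosomal protease legumain and the most abundant of the list, was at 3257 ± 46.2 and 3500 ± 100 CPM (adjusted p = 0.113).

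Of 19 homeostatic microglia genes, 12 were tested, 2 fell (16.7%, beside 2.56% of all genes) and 0 rose, with a median log2 fold change of -0.03. Selplg, a P-selectin ligand, was at 195, 200 and 202 CPM in Cre- and at 161, 177 and 175 CPM in Cre+ (-0.22, SE 0.05, adjusted p = 0.0137). It was no longer called without Cre- replicate 2 (adjusted p = 0.0521), Cre- replicate 3 (0.0553) or Cre+ replicate 1 (0.0643). Olfml3, a secreted olfactomedin-like protein, was at 57.4, 53.9 and 58.7 CPM in Cre- and at 40.6, 46.2 and 52.5 CPM in Cre+ (-0.29, SE 0.08, adjusted p = 0.0493), and it was called only without Cre+ replicate 3 among the fits that left out a library. In the other 5 its adjusted p was 0.0611 to 0.179. Cst3, the abundant cystatin C, which belongs to this list and to the relatives of Cst7, was at 1652 ± 49.0 and 1604 ± 40.5 CPM (adjusted p = 0.610).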

How the data were processed

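RNA-seq of 6 cultures (3 Cre-, 3 Cre+), grouped by the genotype in the labels, was analysed. The counts were deposited by the authors as whole numbers of reads per Ensembl gene on GRCm38. The submitters' processing notes name STAR 2.7.9a and featureCounts 2.0.3, and the study's methods give other versions. Whether counting used strand is not given in the sources used here, so reads of a gene and of an overlapping antisense gene cannot be told apart. The CPM values deposited by the authors equal the counts divided by the library total, and the FPKM values deposited by the authors equal CPM per kilobase of gene length. FPKM served only to order genes by level.

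The 10 genes, the other lists and the rules were chosen with earlier results of these data known. Genes annotated as rRNA or Mt_rRNA were left out, and those over 1 CPM in at least 4 libraries entered the test, as in the study. The study then tested with limma voomWithQualityWeights, which is among the alternatives here. The 11429 genes were tested with edgeR 4.0.16 (quasi-likelihood, TMM, no covariates, R 4.3.3), with Benjamini-Hochberg adjustment over all of them and a threshold of 0.05. Every adjusted p in the text comes from this fit unless another tool is named. CPM with an SD is TMM-normalized, and intervals are 95% and unadjusted. The coefficient of variation between cultures from the common dispersion was 10%. On counts simulated for the 11429 genes of the same comparison, edgeR called 88 of 100 genes changed 1.5-fold, 100 of 100 changed 2-fold and 7 unchanged genes. Smaller changes were not simulated.

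The genes named are the 10, in each other list all called genes where there were at most 6 and otherwise the 6 with the smallest p, the most abundant gene of each list, the 5 profiles nearest to the member with the smallest p (1 of them is not reported here), Nr1d1, and genes whose transcripts match over at least 100 bases at 95% identity or more. Dok1, P2ry12, Tmem119, Aif1, Itgam, Mrc1, S100a8 and Ccr2 were named after their values were seen. For Lpl, matches of this kind, of 100 to 184 bases, were found in 38 genes, which are not listed. Counted over their whole length, those genes held 24.2% as many counts as Lpl. Read assignment over the matching bases is uncertain. Sequences are from RefSeq (GRCm38.p6), and copies were searched with blastn 2.17.0 in GENCODE M21. Of the genes in the files, 55227 matched M21 by identifier. Alternatives were DESeq2 1.42.0 and its size factors, library totals, limma 3.58.1 (voom with and without quality weights), 3 other expression filters, ribosomal genes kept or removed, the replicate number as a block, and each library left out. Tables and plots used python 3.11.15, pandas 2.3.3, numpy 2.4.6, scipy 1.17.1 and matplotlib 3.10.9. Tests of single libraries as outliers were not made, since groups hold 3.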

Additional observations from a re-analysis of the deposited data

How the results depend on the processing

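Of the 10 genes, 2 or 3 were called under each alternative that kept all 6 libraries, the third being Igf1, and 0 to 2 when a library was left out, with 0 without Cre- replicate 3. Over all genes, 579 calls became 886 with DESeq2, 1528 with no filter on expression, and 317 to 448 when a library was left out. The TREM2 signalling genes had 1 call with DESeq2, 1 with no filter, and 0 to 1 with a library left out. Calls among the TYROBP-coupled receptors were 1 to 2 with a library left out. The regulators had 1 call under edgeR filterByExpr, 1 with no filter and 1 in every fit that left out a library, and the relatives and partners 5 with no filter and 0 to 2 with a library left out. The homeostatic genes had 0 calls under filterByExpr, 1 with no filter, 1 with ribosomal RNA genes kept, and 0 to 2 with a library left out. The count for the other disease-associated genes was 16 in the main fit and ran from 11 without Cre- replicate 3 to 17 with DESeq2. Among these 16, calls were lost for Timp2 in 8 of the 17 alternatives, Fth1 in 6 and Ctsb in 5. They were also lost for Ccl4 in 4, Soat1 in 3, Axl in 2 and H2-D1 in 1. These genes are named for their lost calls.

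Cst7 entered 3 fits with another expression filter, with log2 fold changes from -0.53 to -0.44 and adjusted p from 0.293 to 0.492. The sign changed for 3 genes whose values lie near 0, none of them called. Trem2 was -0.003 with DESeq2 size factors and with DESeq2, -0.007 with ribosomal protein genes removed, and -0.025 to 0.019 with a library left out. Spp1 was 0.009 under filterByExpr and 0.045 with no filter. Lgals3 was 0.001 on library totals, 0.038 under filterByExpr, 0.074 with no filter and -0.047 to 0.031 with a library left out. Keeping more low genes raised the median log2 fold change of all genes, by 0.04 under filterByExpr and 0.08 with no filter, and the values of the 9 genes are to be read relative to that shift.

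Libraries of the same number in Cre- and Cre+ did not deviate together (correlations 0.01, -0.02 and -0.04). The labels do not say whether cultures of the same number were prepared together. With 3 libraries per group, these correlations cannot decide it. With the replicate block, 430 genes were called over all genes and 2 of the 10, Gpnmb (adjusted p = 0.037) and Lpl (0.0455), and the call of Itgb5 was lost (0.0805). Under filterByExpr and with no filter, Rxra, Ctsh, Itgb5, Olfml3 and Selplg lost their calls (adjusted p from 0.0717 to 0.421). Fewer samples enter the fits that leave out a library, and the cause of the other changes was not tested.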

Other observations

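On library totals, Lpl was at 4235, 4235 and 4235 CPM in the 3 Cre+ libraries, a range of 0.0046% of the lowest value. Counting error alone would be 0.15% to 0.16% per library at these counts. The 3 Cre- libraries, at 3809, 3849 and 3671 CPM, had no such closeness, and with TMM scaling the Cre+ values were 4286, 4263 and 4299 CPM. This was noticed after the values were seen and was not tested.

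The premelanosome gene Pmel, a paralog of Gpnmb, averaged 1.12 CPM in Cre- and 0.295 CPM in Cre+, below the filter of the test. By CPM, Gpnmb was the number 4 transcript of the cultures. Mitf, a regulator of Gpnmb in pigment cells and osteoclasts, averaged 45.7 ± 1.06 CPM in Cre- and 50.4 ± 2.96 CPM in Cre+ (SD, n = 3). Its log2 fold change of 0.14 did not pass the edgeR test (SE 0.06, adjusted p = 0.225). Its groups did not overlap, which held for 24.0% of all genes. The related factors Tfeb (-0.152), Tfe3 (-0.064) and Tfec (-0.025) had values below 0, with overlapping groups, and did not pass the test either. A link between Mitf and Gpnmb was not tested. All genes of this paragraph except Gpnmb were chosen after their values were seen.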
